A study of Mus musculus with 6 samples.

Results

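The 35 genes described here encode the enzymes that oxidize fatty acids in mitochondria and peroxisomes, from the acyl-CoA synthetases that activate a fatty acid to the thiolases that release acetyl-CoA. They were listed by name as enzymes of this pathway, with earlier results of these data known, and no threshold on a measured value entered the list. All 35 were found among the 45706 genes of the count table. Of these, 33 passed a filter on low counts and were tested, as were 11440 genes in all, whereas Acaa1b and Acot1 did not pass. By the compartment in which they are known to work, 20 are mitochondrial, 6 are peroxisomal and 4 (Acad11, Eci2, Ech1 and Crat) are found in both or not settled. The remaining 5 are Acsl1, Acsl3, Acsl4 and Acsl5, which sit on several membranes, and the cytosolic Acot1.

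The samples were 3T3-L1 cells, a line of mouse embryo fibroblasts that turn into adipocytes in culture. Lentivirus had brought in either a scrambled control shRNA (labelled WT, n = 3) or an shRNA against Rbms1 (labelled RBMS1KD, n = 3), and transduced cells were selected with puromycin as a stable population. Both groups had received IBMX, insulin, dexamethasone and rosiglitazone to induce differentiation and were harvested on day 7. No source names a clone or a second shRNA sequence. The study's methods call the samples of a group biological replicates, and state of its experiments in general that each was run 3 independent times. They do not say whether each sequenced sample came from its own transduction or differentiation. The p-values measure the spread between these samples.

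In mitochondria, a long-chain acyl-CoA is handed to carnitine by CPT1, returned to CoA by CPT2 and then shortened in repeated rounds of dehydrogenation, hydration, a second dehydrogenation and thiolysis, while electrons pass through the electron transfer flavoprotein to the respiratory chain. Peroxisomes run a parallel spiral on very-long-chain and branched acids. White adipocytes mainly store and release fatty acids, and PPAR receptors with the coactivator PGC-1α are known activators of many of these genes.

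The table holds 3142695 to 11073098 estimated counts per sample. Levels are given as CPM, counts scaled to a common library size after correction of each library by its TMM factor, and an undetected gene could reach 0.220 to 1.49 CPM in a single sample, the level of 3 counts (counting error only). Genes derived from ribosomal RNA took 43.0% of the counts of control replicate 2, the shallowest library, and 8.12% to 17.8% of the others. The targeted gene, Rbms1, stood at 113, 102 and 99.6 CPM in the controls and at 49.2, 61.4 and 84.0 CPM in the knockdown samples, with a log2 fold change of -0.69 (edgeR adjusted p = 0.185). The 11 adipocyte markers, of which 10 could be tested, had a summed level of 21209, 22556 and 24650 CPM in the controls and 20073, 11015 and 12885 CPM in the knockdown samples. Lpl alone gave 12280, 11960 and 14510 CPM of the control sums and 10210, 5350 and 5595 CPM of the knockdown sums. Lpl and Retn, another of these markers, lie on chromosome 8, where the median log2 fold change over all tested genes was -0.38. Whether the chromosome has a part in their levels was not tested. The 9 preadipocyte and fibroblast markers, of which 8 could be tested, summed to 7126 to 8259 CPM in the controls but to 3799, 7902 and 7267 CPM in knockdown replicates 1, 2 and 3. Knockdown replicate 1 therefore stood apart from the other knockdown samples on both lists, and the calls made without it are given below. Ptprc and Adgre1 (macrophages), Myog and Ckm (muscle) and Ucp1 (brown adipocytes) had no counts in any sample. Other genes of the same lists did have counts. Those that passed the filter were Cd68 (macrophages), Acta1, Acta2 and Tagln (muscle), and Ppargc1a and Cox8b (brown and beige adipocytes).

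Hadha and Hadhb, which encode the subunits of the mitochondrial trifunctional protein, lie head to head on chromosome 5, and the stretch between them is shown because both genes are read outward from it. In the GENCODE annotation of GRCm38, Hadha (minus strand) ends at 30155162 and Hadhb (plus strand) starts at 30155248. The 300-base promoter windows of the RefSeq table (250 bases before to 50 after each start, GRCm38.p6) place the starts 273 bases apart and share 228 bases. The 85 bases between the GENCODE genes follow on the plus strand, 5′ to 3′, with CG pairs in capitals.
Hadha and Hadhb, chr5:30155163-30155247: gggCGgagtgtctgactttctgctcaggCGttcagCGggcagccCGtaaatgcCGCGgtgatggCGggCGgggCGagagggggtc
It holds 9 CG pairs, and 69.4% of its bases are G or C. Promoter windows were found for 29 of the 35 genes (30 windows), with a median of 17 CG pairs and 59.5% GC, against 7 CG pairs and 52.7% GC over all 32851 windows of that length, whether or not the gene was tested here. Acaa2, Acat1, Cpt1b, Crat, Decr1 and Hsd17b4 had no window and were not searched. Neither of the motifs searched on both strands lay in a window of these genes: DR1, the direct repeat of the nuclear receptor site AGGNCA with any 1 base between the copies, was in 0.381% of all windows and TCAAGGTCA, the element of estrogen-related receptors, in 0.423%. The motifs can share letters, since both hold AGGTCA or a form of it, and the search says only that these letters are not in these windows. Motifs this rare would be missing from most sets of 30 windows.

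Across the 35 genes, control levels per kilobase of exon spanned from 374 CPM per kb for Acsl1 down to 0.1104 for Acot1. After Acsl1 came Etfb at 105, Acadvl at 92.2, Acadm at 85.5 and Acadl at 83.3 CPM per kb. The carnitine acyltransferases Cpt1a and Cpt1b stood far below at 2.72 and 0.547, while Cpt2, the next enzyme, stood at 55.6. Between peroxisomal genes the range ran from 29.3 for Hsd17b4 to 0.334 for Acaa1b. Exon length here is the union over all annotated transcripts. With coding length in its place, Acadm (245 CPM per kb of coding sequence), Hadh (182), Decr1 (99.9) and Acaa1a (68.4) replaced Acadvl, Acaa2, Ech1 and Hsd17b4 as the highest of their roles, and Acsl1, Crat, Etfb and Acot2 kept that place.

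**Figure D1:**
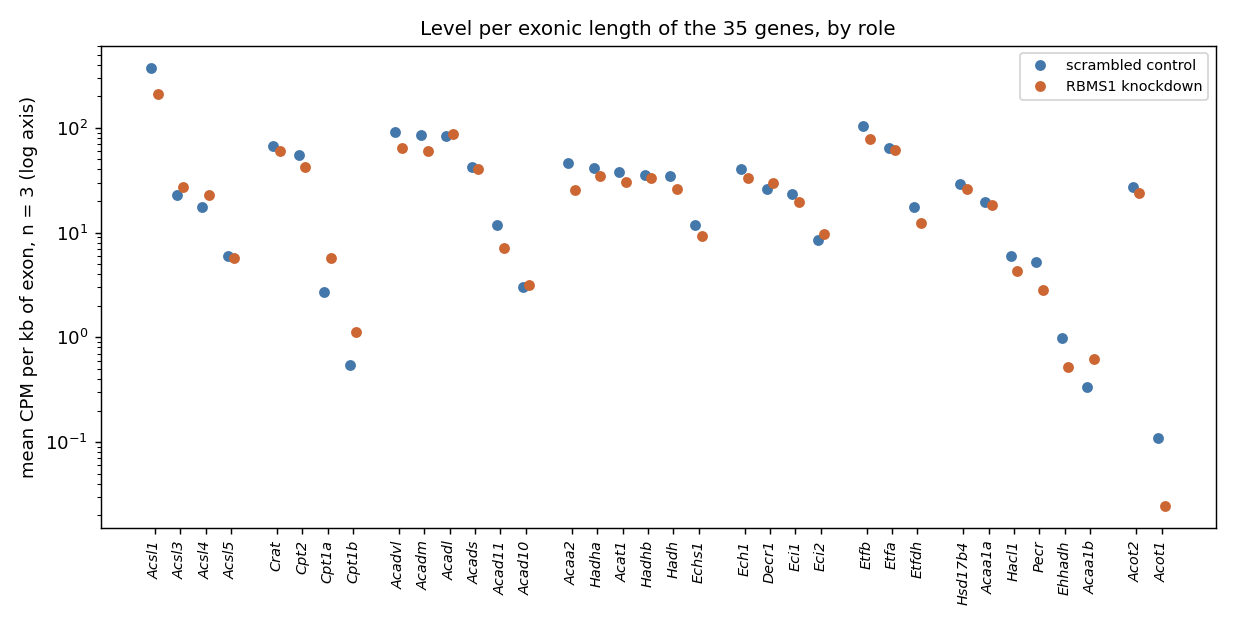
Mean CPM per kilobase of exon (log axis) of the 35 genes grouped by role, in scrambled control (blue) and RBMS1 knockdown (orange) samples, n = 3 each. Acsl1 is highest at 374 in the controls and 210 in the knockdown, and Cpt1a is the gene above 1 CPM per kb with the widest upward step, from 2.72 to 5.71.

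Acaa2, the mitochondrial thiolase, was the 1 gene of the 33 that passed the test by edgeR's quasi-likelihood method, at a Benjamini-Hochberg adjusted p of 0.1 or less. It was lower in the knockdown, and over all tested genes 1.22% were called, 0.909% lower and 0.315% higher. None of the 33 had an edgeR adjusted p under 0.05, as 0.463% of all tested genes did. DESeq2 called 4 of them (Acaa2, Acad11 and Acsl1 lower, Cpt1a higher), where 3.2% of the genes it tested were called. At an unadjusted p under 0.05, 8 of the 33 genes were lower and 1, Cpt1a, was higher, where the shares over all tested genes were 6.98% and 5.45%. The knockdown samples all lay below the controls for 8 genes and all above them for 1, against 9.55% and 8.96% of all tested genes. The log2 fold change was below 0 for 25 of 33 genes (49.6% of all genes) and ranged from -1.05 to 1.06.

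The median log2 fold change of the 33 genes was -0.25, beside 0.0044 over all tested genes. With library sizes alone, without TMM factors, the median of all genes moved to 0.37 and that of the 33 genes to 0.16, with 12 of them below 0 (15.5% of all tested genes), so that the difference from all genes was -0.25 with TMM and -0.21 without. The 9 genes with an unadjusted p under 0.05 kept their direction with library sizes alone, but the log2 fold changes of 4 of them came close to 0, at -0.057 for Hadh, -0.093 for Etfdh, -0.11 for Acadm and -0.13 for Acadvl. Acsl1, Acad11, Acaa2 and Pecr also shrank, to -0.463, -0.345, -0.453 and -0.538, while Cpt1a rose to 1.41. Genes with small negative values, such as Hadha and Hadhb, turned positive under that scaling. For the 20 mitochondrial genes the median was -0.25 with 15 below 0, and for the 5 tested peroxisomal genes it was -0.49 with 5 below 0. With library sizes alone these medians were 0.14 with 7 below 0 and -0.18 with 3 below 0. Both medians moved with single samples. The mitochondrial median was -0.40 without knockdown replicate 1 and -0.13 without knockdown replicate 2, and the peroxisomal median was -0.32, -0.28 and -0.31 without control replicate 1, control replicate 3 and knockdown replicate 2. The difference between the compartments was not tested.

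**Figure D2:**
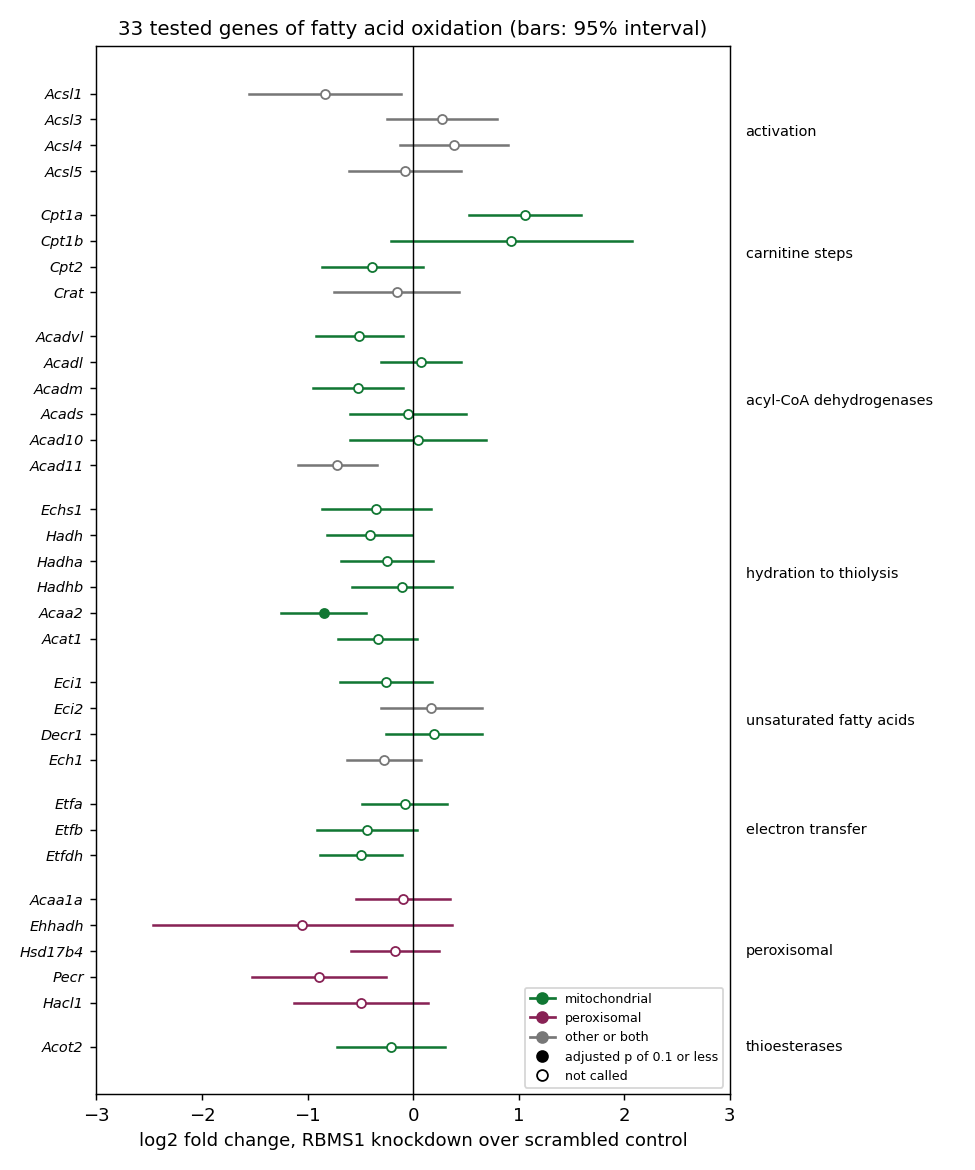
Log2 fold change of RBMS1 knockdown over scrambled control for the 33 tested genes by role, with 95% intervals from edgeR's quasi-likelihood fit, where filled points mark an adjusted p of 0.1 or less. Acaa2 at -0.85 is the filled point, Cpt1a at 1.06 and Ehhadh at -1.05 are the ends of the range, and 25 points lie left of 0 under TMM scaling (12 with library sizes alone).

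The lower median did not come evenly from the knockdown samples. Relative to the mean of the 6 samples, the median log2 level of the 33 genes was 0.090, 0.059 and 0.20 in the controls and 0.18, -0.44 and -0.21 in knockdown replicates 1, 2 and 3. Knockdown replicate 1 thus sat within the range of the controls, and the others sat below it. Rbms1, however, was lowest in knockdown replicate 1, at 49.2 CPM against 61.4 and 84.0 CPM in replicates 2 and 3. Whether the shift of the 33 genes follows the loss of Rbms1 was not tested. The 10 adipocyte markers gave 0.23, 0.22 and 0.28 in the controls and 0.17, -0.66 and -0.37 in the knockdown samples, with replicate 1 just below the controls and the others well below them, and all 10 had a log2 fold change below 0 (6 with library sizes alone), with 1 of them, Retn, called. In bulk RNA, fewer adipocytes and less of these transcripts per adipocyte cannot be told apart, and the part of the adipocyte markers in the result was not tested. In other assays the study reported unchanged oil red O lipid content, PPARγ and adiponectin. It also reported lower C/EBPα, hormone-sensitive lipase and ATGL, the last as protein alone. Without knockdown replicate 1, 28 of 33 genes were below 0, the median was -0.38 and 10 genes were called, Acaa2, Acad11, Acadm, Acadvl, Acsl1, Cpt2, Echs1, Etfb and Hadh lower and Cpt1a higher, among 696 genes called in all (5.94% of those tested). Leaving out any other single sample gave no call among the 33 genes, and the medians then lay between -0.27 and -0.11, the latter without knockdown replicate 2. Knockdown replicate 1 was singled out from the values, and on these genes it lay nearest the controls of the knockdown samples. Leaving it out therefore widens the differences by choice and is no support of its own.

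**Figure D3:**
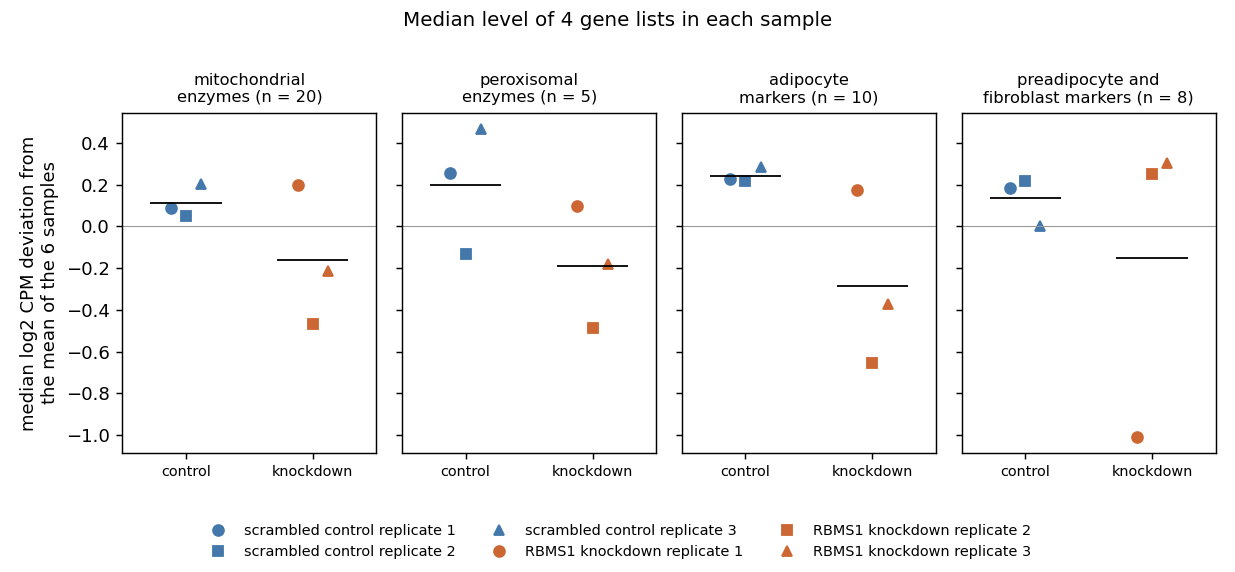
Median log2 CPM deviation from the mean of the 6 samples for the 20 mitochondrial genes, the 5 tested peroxisomal genes, 10 adipocyte markers and 8 preadipocyte and fibroblast markers, with 1 point per sample and a line at the group mean. Knockdown replicate 1 lies within the range of the controls for the mitochondrial and peroxisomal genes (0.20 and 0.097), just below it for the adipocyte markers (0.17) and at -1.01 for the fibroblast markers, where the other 5 samples lie between 0.0036 and 0.30.

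Activation was dominated by Acsl1 (ENSMUSG00000018796, chromosome 8, 46471037 to 46536051), the main long-chain acyl-CoA synthetase of adipocytes. Acsl1 measured 3877, 3876 and 4006 CPM in the controls and 3249, 1619 and 1728 CPM in the knockdown samples. All knockdown samples were below all controls, but replicate 1 was much closer to the controls than the others. The mean was 1.78-fold lower, with a log2 fold change of -0.83 (SE 0.32, 95% interval -1.55 to -0.12) and an edgeR adjusted p of 0.324, which missed the threshold, whereas DESeq2 gave an adjusted p of 0.0553. Without knockdown replicate 1, Acsl1 was at -1.22 (edgeR adjusted p = 0.0199), and without any other single sample its edgeR adjusted p was 0.443 to 0.616. The median over the 624 tested genes of chromosome 8 was -0.38, and after the median of each chromosome had been taken out per sample Acsl1 was at -0.45 (edgeR adjusted p = 0.691). Whether the chromosome has a part in this was not tested.

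None of the other synthetases passed the test. Acsl3 and Acsl4, which act on the endoplasmic reticulum and lipid droplets and on arachidonate, had log2 fold changes of 0.27 and 0.39 (edgeR adjusted p = 0.688 and 0.529), and Acsl5 was at -0.08 (edgeR adjusted p = 0.932). Within a sample, the count ratio of Acsl1 to Acsl3 was 46.2, 42.9 and 32.8 in the controls and 20.3, 15.2 and 18.8 in the knockdown samples. Acsl1 to Acsl4 gave 45.0, 47.6 and 34.6 against 21.3, 12.2 and 20.0. These ratios do not depend on how libraries are scaled, and for both pairs the groups stayed apart, knockdown replicate 1 included. Acsl1 to Acsl5 overlapped, at 134, 126 and 146 against 177, 55.4 and 49.6, with knockdown replicate 1 above the controls.

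Cpt1a (ENSMUSG00000024900, chromosome 19, 3322334 to 3385733) encodes the outer-membrane carnitine palmitoyltransferase, the malonyl-CoA-sensitive step that controls entry of long-chain fatty acids. Its level was 26.0, 17.9 and 18.6 CPM in the controls and 31.3, 49.1 and 50.4 CPM in the knockdown samples. Every knockdown sample was above every control, the reverse of the trend of most of these genes. The mean was 2.09-fold higher, and the log2 fold change was 1.06 (SE 0.24, 95% interval 0.53 to 1.59) with an unadjusted p of 0.00138 and an edgeR adjusted p of 0.105, which narrowly missed the threshold of 0.1. DESeq2 gave an adjusted p of 0.0125, and over 18 alternatives the adjusted p ranged from 0.0125 to 0.363, with 5 calls and log2 fold changes between 0.95 and 1.26 when single samples were left out. Without knockdown replicate 1, Cpt1a reached 1.26 (edgeR adjusted p = 0.0142).

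Cpt1b, the muscle-type isoform, had only 9, 2 and 18 counts in the controls and 20, 47 and 41 in the knockdown samples, at a log2 fold change of 0.93 (SE 0.51, edgeR adjusted p = 0.497). Of the 31-base words in its transcripts 79.7% also occur in Gm44502, so that its counts are uncertain. Cpt2, the inner-membrane partner, stood at 139, 129 and 132 CPM against 139, 77.9 and 88.5 CPM, a log2 fold change of -0.39 (edgeR adjusted p = 0.499). The ratio of Cpt1a to Cpt2 counts was 0.188, 0.139 and 0.141 in the controls and 0.226, 0.631 and 0.569 in the knockdown samples. It was higher in each knockdown sample, though replicate 1 lay near the controls. Cpt1a to Crat gave 0.0856, 0.0455 and 0.0492 against 0.0662, 0.195 and 0.211, where replicate 1 overlapped the controls. Crat, the carnitine acetyltransferase and the most abundant of the role per exon length, measured 303, 393 and 378 CPM in the controls and 474, 252 and 239 CPM in the knockdown samples. Its knockdown samples lay on both sides of the controls, and the log2 fold change was -0.16 (SE 0.26, edgeR adjusted p = 0.859).

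**Figure D4:**
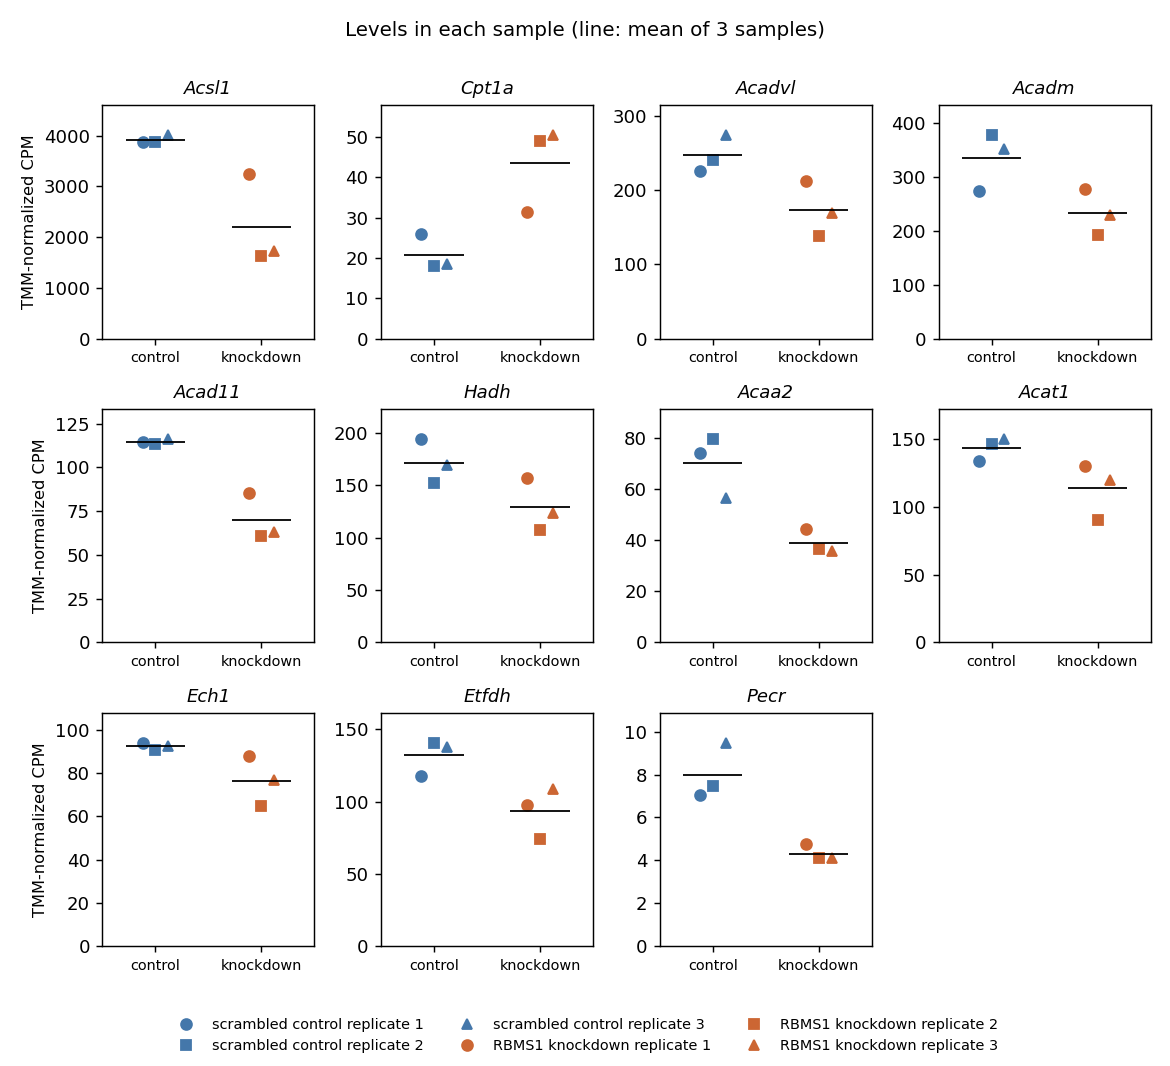
TMM-normalized CPM in each sample for the 11 tested genes with an unadjusted p under 0.05 or with no overlap between the groups, with 1 point per sample and a line at the mean of 3. Cpt1a is higher in all knockdown samples and Acsl1, Acadvl, Acad11, Acaa2, Acat1, Ech1, Etfdh and Pecr are lower in all of them (the fold changes of Acat1 and Ech1 change sign with library sizes alone), while Acadm and Hadh overlap.

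Among the 6 acyl-CoA dehydrogenases none was called, and 3 were lower at an unadjusted p under 0.05, where 6.98% of all tested genes were. Acadvl, which starts the oxidation of very-long-chain acyl-CoA at the inner membrane, measured 227, 242 and 274 CPM in the controls and 213, 139 and 169 CPM in the knockdown samples. The groups did not overlap, and the log2 fold change was -0.51 (SE 0.18, 95% interval -0.92 to -0.10, edgeR adjusted p = 0.291). Acadm, the medium-chain enzyme, measured 274, 377 and 352 CPM against 277, 193 and 230 CPM, with knockdown replicate 1 above the lowest control. Its log2 fold change was -0.52 (SE 0.19, edgeR adjusted p = 0.2998), and both were called only without knockdown replicate 1 among all alternatives run, at edgeR adjusted p values of 0.0586 for Acadvl and 0.0876 for Acadm.

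Acadl, the long-chain enzyme between them in specificity, stood at 157, 171 and 173 CPM in the controls and 206, 142 and 180 CPM in the knockdown samples. The log2 fold change of Acadl was 0.07 (95% interval -0.30 to 0.45, edgeR adjusted p = 0.901). Counts of Acadvl relative to Acadl were 1.44, 1.42 and 1.58 in the controls and 1.03, 0.982 and 0.944 in the knockdown samples. Acadl relative to Acadm gave 0.573, 0.453 and 0.492 against 0.744, 0.733 and 0.782. In each ratio the 3 knockdown samples lay close together and apart from the controls, although their levels differed. Part of Acadvl (1151 bases of its exons) overlaps Dvl2 on the other strand, and whether the counting used strand is not given in the sources used here.

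Acad11 (ENSMUSG00000090150, chromosome 9, 104063377 to 104127725), which prefers very-long-chain acyl-CoA, was among the steadiest of the genes in the controls. It stood at 114, 113 and 116 CPM in the controls and at 85.2, 60.6 and 63.1 CPM in the knockdown samples, 1.65-fold lower by the means. The log2 fold change was -0.72 (SE 0.17, 95% interval -1.09 to -0.34, unadjusted p = 0.00181, edgeR adjusted p = 0.115), which missed the threshold, and DESeq2 gave an adjusted p of 0.0273. Without knockdown replicate 1 it was -0.88 (edgeR adjusted p = 0.0150), and without any other single sample the edgeR adjusted p was 0.204 to 0.358. With library sizes alone Acad11 was at -0.345 (edgeR adjusted p = 0.507). The ratio of Acadl to Acad11 counts was 1.37, 1.51 and 1.49 in the controls and 2.42, 2.34 and 2.85 in the knockdown samples. Acads (short-chain) and Acad10 were at -0.05 and 0.04 (edgeR adjusted p = 0.956 and 0.967), with 95% intervals of -0.60 to 0.50 and -0.60 to 0.69.

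For hydration, the second dehydrogenation and thiolysis, 6 of 6 genes had log2 fold changes below 0 under TMM scaling (2 with library sizes alone), with a median of -0.34, and 1 passed the test. Acaa2 (ENSMUSG00000036880, chromosome 18, 74779197 to 74806208), the medium- and long-chain 3-ketoacyl-CoA thiolase, measured 74.2, 79.4 and 56.4 CPM in the controls and 44.3, 36.5 and 35.8 CPM in the knockdown samples. All of the knockdown samples, replicate 1 among them, were below the lowest control. The means were 70.0 ± 12.1 CPM (SD, n = 3) and 38.9 ± 4.70 CPM (SD, n = 3). It fell 1.80-fold, with a log2 fold change of -0.85 (SE 0.18, 95% interval -1.25 to -0.44, edgeR adjusted p = 0.0924, DESeq2 adjusted p = 0.0138). The call was narrow. It was kept without knockdown replicate 1 (edgeR adjusted p = 0.0300) and lost without any of the other 5 samples (adjusted p 0.161 to 0.344), although the log2 fold change stayed between -0.98 and -0.75. It was also lost with limma-voom (log2 fold change -0.82, adjusted p = 0.106), after removal of trends with GC content and length (-0.75, edgeR adjusted p = 0.102) or of chromosome medians (-0.91, edgeR adjusted p = 0.1225), and with library sizes alone (log2 fold change -0.45, edgeR adjusted p = 0.394).

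Hadha and Hadhb, whose shared upstream stretch is printed above, had log2 fold changes of -0.25 and -0.10 (edgeR adjusted p = 0.659 and 0.885). Hadha measured 338, 412 and 336 CPM in the controls and 379, 245 and 292 CPM in the knockdown samples. Hadhb measured 231, 216 and 258 CPM against 294, 181 and 181 CPM. The ratio of Hadha to Hadhb was 1.47, 1.91 and 1.30 in the controls and 1.29, 1.35 and 1.61 in the knockdown samples, so that the groups overlapped. By contrast the ratio of Hadhb to Acaa2 was 3.11, 2.73 and 4.58 against 6.65, 4.96 and 5.06, and that of Hadha to Acaa2 was 4.55, 5.19 and 5.95 against 8.55, 6.71 and 8.15.

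Hadh, the short-chain hydroxyacyl-CoA dehydrogenase, measured 194, 152 and 169 CPM in the controls and 157, 107 and 123 CPM in the knockdown samples. Its groups overlapped through replicate 1, and the log2 fold change was -0.41 (SE 0.18, unadjusted p = 0.0473, edgeR adjusted p = 0.393). Without that replicate Hadh was at -0.57 (edgeR adjusted p = 0.0990), and without any other single sample its edgeR adjusted p was 0.548 to 0.705. Acat1, the acetoacetyl-CoA thiolase, stood at 134, 146 and 150 CPM against 130, 90.4 and 120 CPM with no overlap and a log2 fold change of -0.34 (SE 0.17, edgeR adjusted p = 0.459), which turned to 0.053 with library sizes alone. Echs1, the short-chain enoyl-CoA hydratase, was at -0.35 (edgeR adjusted p = 0.579).

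**Figure D5:**
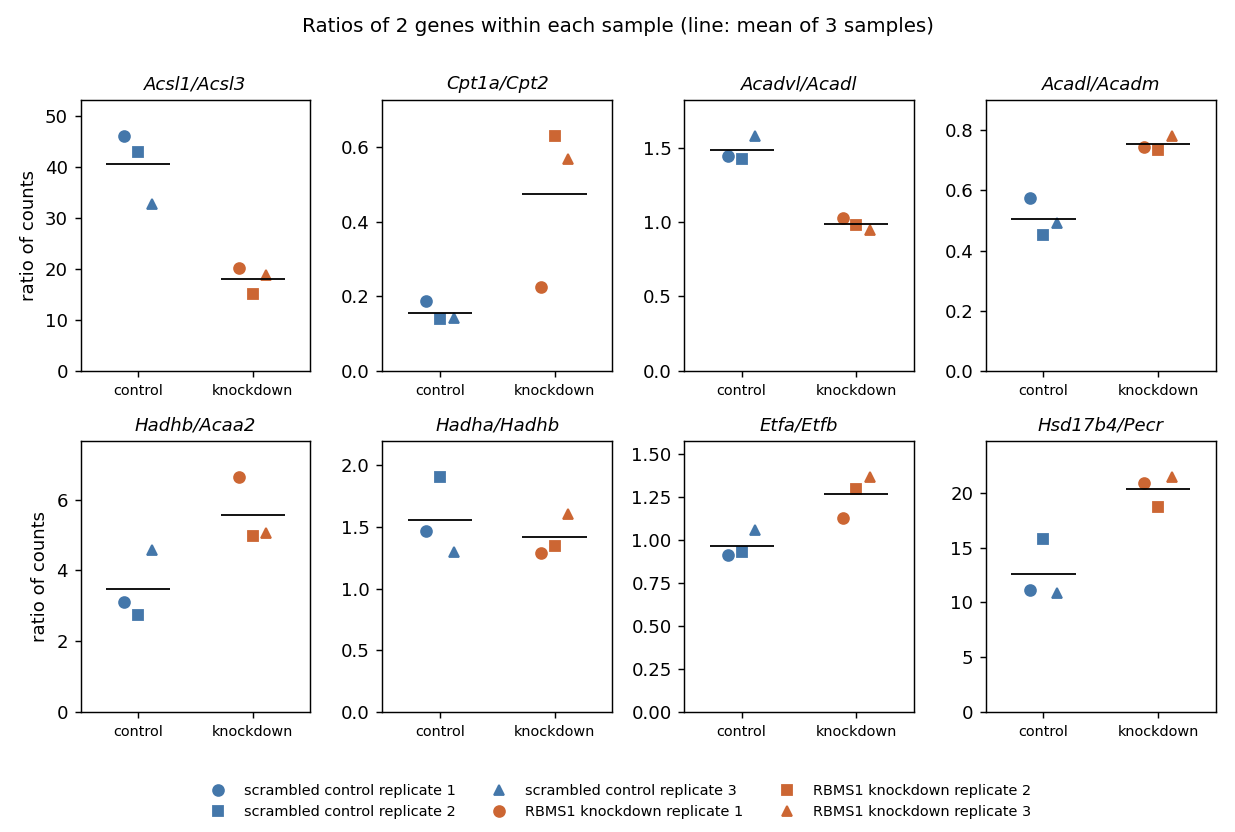
Ratio of the counts of 2 genes in each sample for 8 pairs, with 1 point per sample and a line at the mean of 3. The 8 pairs were picked after the values were seen. The groups are apart in 7 of them, among them Acadvl/Acadl at 1.42 to 1.58 in the controls and 0.944 to 1.03 in the knockdown samples, and overlap for Hadha/Hadhb. Of all 61 pairs within a role, 18 (29.5%) were apart, against 18.5% of all pairs of tested genes.

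Such ratios were looked at after the levels had been seen. In all, 61 pairs of tested genes within a role were compared, and 18 of them (29.5%) had no overlap between the groups, where 18.5% of all 65431080 pairs of tested genes had none. With 3 samples against 3, the smallest p of a two-sided exact permutation test is 0.1, and the ratios were left without a test. Pairs that share a gene are not independent of each other.

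None of the 4 enzymes for unsaturated fatty acids passed the test. Ech1, the dienoyl-CoA isomerase, measured 93.8, 90.8 and 92.6 CPM in the controls and 87.8, 64.9 and 76.6 CPM in the knockdown samples, below the controls in each, with a log2 fold change of -0.27 (SE 0.15, edgeR adjusted p = 0.512) that turned to 0.10 with library sizes alone. Decr1, the mitochondrial dienoyl-CoA reductase, was at 0.20, and the enoyl-CoA isomerases Eci1 and Eci2 were at -0.25 and 0.17 (edgeR adjusted p = 0.751, 0.650 and 0.795). Their 95% intervals ran from -0.26 to 0.66, -0.69 to 0.18 and -0.31 to 0.65.

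Electrons from the first step leave through Etfa and Etfb, the subunits of the flavoprotein, and Etfdh, which passes them to ubiquinone. Etfdh measured 118, 141 and 138 CPM in the controls and 97.6, 74.5 and 109 CPM in the knockdown samples, each of them under the lowest control. The log2 fold change of Etfdh was -0.50 (SE 0.17, 95% interval -0.89 to -0.10, unadjusted p = 0.0186, edgeR adjusted p = 0.277). Etfb measured 118, 125 and 125 CPM against 124, 76.3 and 71.9 CPM, a log2 fold change of -0.43 (SE 0.21, edgeR adjusted p = 0.444), with 47.3% of its 31-base words shared with Gm45233, which lies over it on the same strand. Etfa was at -0.08 (95% interval -0.48 to 0.32, edgeR adjusted p = 0.903). Etfa relative to Etfb, which form a dimer, gave 0.914, 0.932 and 1.06 in the controls and 1.13, 1.30 and 1.37 in the knockdown samples, without overlap.

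No peroxisomal gene passed the test. Pecr, the trans-2-enoyl-CoA reductase, measured 7.05, 7.44 and 9.46 CPM in the controls and 4.74, 4.09 and 4.11 CPM in the knockdown samples. Its 3 knockdown values lay close together and below the controls, replicate 1 included. The mean was 1.86-fold lower, with a log2 fold change of -0.90 (SE 0.28, 95% interval -1.53 to -0.26, unadjusted p = 0.0107, edgeR adjusted p = 0.223), while the median of all 675 tested genes of chromosome 1 was 0.25.

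Hsd17b4, the multifunctional enzyme of the peroxisomal spiral and its most abundant member per exon length, measured 78.1, 118 and 103 CPM in the controls and 99.2, 76.6 and 88.5 CPM in the knockdown samples. These overlapped, and the log2 fold change was -0.17 (95% interval -0.59 to 0.24, edgeR adjusted p = 0.757). The count ratio of Hsd17b4 to Pecr was 11.1, 15.8 and 10.9 in the controls and 20.9, 18.7 and 21.5 in the knockdown samples. Acaa1a, the peroxisomal thiolase, was at -0.09 (edgeR adjusted p = 0.894) and Hacl1, a lyase of alpha-oxidation, at -0.49 (edgeR adjusted p = 0.519).

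Ehhadh, the bifunctional enzyme known as a PPARα target in liver, was barely present, with 36, 1 and 15 counts in the controls and 12, 9 and 26 in the knockdown samples. Its log2 fold change of -1.05 had an interval from -2.47 to 0.36 (edgeR adjusted p = 0.538), and with counts this low and this spread no difference was detectable. Acaa1b had 5, 2 and 1 counts in the controls and 16, 10 and 3 in the knockdown samples and was not tested, and 40% of its 31-base words occur in Acaa1a. Of the acyl-CoA thioesterases, the cytosolic Acot1 had 5, 1 and 0 counts against 1, 0 and 2 and was not tested. Its mitochondrial neighbour Acot2 measured 58.7, 74.9 and 47.7 CPM in the controls and 56.9, 61.3 and 38.3 CPM in the knockdown samples, which overlapped (log2 fold change -0.21, edgeR adjusted p = 0.761), and 29.9% of its 31-base words occur in Acot1.

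A further 69 genes of the pathway were listed, 68 were in the table and 61 were tested. Of these, 1 was called lower and none higher by edgeR, where 0.909% and 0.315% of all tested genes were, so that the count is near the background. Below 0 under TMM scaling were 45 of 61, against 49.6% of all tested genes, and with library sizes alone 15 of 61, against 15.5%. At an unadjusted p under 0.05 there were 8 lower and none higher, against 6.98% and 5.45%. DESeq2 called 4, among them Cat, Hsd17b10 and Ppargc1a, and edgeR without knockdown replicate 1 called 8, among them these and Slc25a20, where 5.94% of all genes tested were called. Cat, the catalase that removes the hydrogen peroxide of peroxisomal oxidation, stood at 411, 613 and 535 CPM in the controls and 343, 262 and 253 CPM in the knockdown samples (log2 fold change -0.86, edgeR adjusted p = 0.115, DESeq2 adjusted p = 0.00595). Its knockdown samples were all below the controls.

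Hsd17b10, a mitochondrial hydroxyacyl-CoA dehydrogenase, measured 60.8, 78.9 and 61.9 CPM against 46.3, 30.7 and 33.4 CPM, again without overlap (log2 fold change -0.87, edgeR adjusted p = 0.111). Ppargc1a, which encodes PGC-1α, measured 17.3, 22.8 and 13.3 CPM against 9.34, 9.24 and 6.31 CPM (log2 fold change -1.09, edgeR adjusted p = 0.140, DESeq2 adjusted p = 0.0596). Each knockdown sample lay below each control, replicate 1 included. The remaining genes at an unadjusted p under 0.05 were Decr2 (peroxisomal dienoyl-CoA reductase) at -0.63, Mcee (methylmalonyl-CoA epimerase) at -0.85, Dbi (acyl-CoA binding protein) at -0.43 and Slc25a20 (the carnitine-acylcarnitine carrier) at -0.78, with edgeR adjusted p values of 0.161, 0.277, 0.353 and 0.383. With library sizes alone the log2 fold changes were smaller, at -0.45 for Cat, -0.46 for Hsd17b10, -0.69 for Ppargc1a, -0.24 for Decr2, -0.41 for Mcee, -0.039 for Dbi and -0.43 for Slc25a20.

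By list, 20 of 26 further oxidation and transport genes, 6 of 7 odd-chain and ketone genes, 8 of 13 regulators and 11 of 15 peroxisome biogenesis genes were below 0, at medians of -0.22, -0.43, -0.19 and -0.10 under TMM scaling. With library sizes alone 6, 4, 3 and 2 of these genes were below 0. Ppara was not tested, since its counts did not pass the filter.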

How the data were processed

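RNA was sequenced from 3 scrambled control and 3 RBMS1 knockdown samples. Per the labels, Trim Galore 0.6.7, STAR 2.7.10a (GRCm38) and Salmon 1.9.0 were used, and the values the authors deposited are estimated counts per gene made from these alignments, not normalized. Neither the annotation release nor the use of strand in counting is given in the sources used here. The rounded counts entered edgeR 4.0.16 under R 4.3.3 (filterByExpr, TMM factors, glmQLFit and glmQLFTest with condition as the single term). Adjustment by Benjamini-Hochberg ran over all 11440 tested genes, and the threshold was 0.1. The SE is the size of the log2 fold change divided by the square root of F, and intervals are at 95%. Alternatives were DESeq2 1.42.0, limma-voom (limma 3.58.1), other scalings and filters, unrounded counts, a replicate block, trends with GC content and length (loess, span 0.3) or chromosome medians removed, each sample left out, and, chosen after seeing the data, edgeR's earlier quasi-likelihood estimate. The genes, lists and tests were chosen with earlier results of these data known. Values in every sample are given for genes with an unadjusted p under 0.05, no overlap between groups, or the highest level per length of their role. Of other pathway genes, those with an unadjusted p under 0.05 are named, except 1 that is not reported here. Retn, the marker genes of the closing section, further per-sample values and the ratios were added after values were seen. Positions and lengths came from GENCODE for GRCm38 (11402 tested genes matched). The scripts were tested on simulated counts.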

Additional observations from a re-analysis of the deposited data

How the results depend on the processing

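Over all tested genes, 140 were called at an adjusted p of 0.1 in edgeR. DESeq2 called 430, no filter on low counts gave 268, removal of chromosome medians 74, an adjusted p under 0.05 left 53, and leaving out single samples gave 12 to 696. Of the 33 fatty acid oxidation genes, 1 was called, beside 4 with DESeq2 (Acaa2, Acad11, Acsl1 and Cpt1a), 1 with library sizes alone (Cpt1a in place of Acaa2, log2 fold change 1.41, edgeR adjusted p = 0.0749), 2 without a filter (Acaa2 and Cpt1a), 2 after removal of trends with GC content and length (Acad11 and Cpt1a), 0 with limma-voom, with chromosome medians removed and at an adjusted p under 0.05, and 0 to 10 without single samples. Of the other pathway genes 1 was called, beside 4 with DESeq2, 3 without a filter, 0 with limma-voom and with chromosome medians removed, and 0 to 8 without single samples. The cause of these shifts was not tested. The earlier quasi-likelihood estimate, chosen after seeing the data, called 122 genes and changed no call among the 33.

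With library sizes alone the medians were 0.16 for the 33 genes, 0.14 for the mitochondrial and -0.18 for the peroxisomal genes, and Acat1 (0.053) and Ech1 (0.10) changed sign. Without single samples the medians ranged from -0.38 to -0.11, from -0.40 to -0.13 and from -0.73 to -0.28. Rbms1 was at -0.31 (edgeR adjusted p = 0.572) with library sizes alone, ranged from -0.92 to -0.52 without single samples, and was called without knockdown replicate 3 (edgeR adjusted p = 0.0708). Same-numbered samples showed no shared deviation (correlations of -0.144, 0.0785 and -0.0284), where differently numbered samples gave -0.173 to 0.206. With 3 samples per group, these values cannot decide whether the numbers mark samples handled together. With the replicate block, 39 genes, 0 of the 33 and 0 of the other pathway genes were called (Acaa2 at an edgeR adjusted p of 0.187). Depth limits Ehhadh, Cpt1b, Acaa1b and Acot1 most.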

Other observations

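Of the 6 genes of the muscle marker list, 3 passed the filter on low counts. Acta1, an actin of skeletal muscle, was called, at 14.6, 13.4 and 17.55 CPM in the controls and 0.719, 1.52 and 0.514 CPM in the knockdown samples, each below each control (log2 fold change -4.07, edgeR adjusted p = 0.0116). It lies on chromosome 8, where the median log2 fold change over all tested genes was -0.38. Acta2, a smooth muscle actin also made by fibroblasts, measured 185, 78.4 and 94.8 CPM in the controls and 5.89, 210 and 298 CPM in knockdown replicates 1, 2 and 3. Tagln, another smooth muscle gene, measured 12.2, 2.48 and 7.57 CPM in the controls and 1.29, 18.1 and 26.0 CPM in the knockdown samples. For Acta2 and Tagln, knockdown replicate 1 was the lowest of the 6 samples and the other knockdown samples were the highest, at log2 fold changes of 0.52 and 0.97 (edgeR adjusted p = 0.865 and 0.679). These genes were chosen after their values were seen.

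Of the 7 brown and beige adipocyte markers, Ppargc1a and Cox8b passed the filter. Cox8b, a subunit of the respiratory chain, measured 11.4, 8.44 and 13.6 CPM in the controls and 4.74, 6.20 and 9.03 CPM in the knockdown samples, which overlapped (log2 fold change -0.75, edgeR adjusted p = 0.362). Of the 5 macrophage markers, Cd68 passed the filter, at 0.688 to 2.48 CPM in the controls and 1.76 to 3.27 CPM in the knockdown samples (log2 fold change 0.92, edgeR adjusted p = 0.570).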
